A study of Mus musculus with 12 samples.

Results

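The comparison described here is that of SH SNA with SH Sham: ganglia of mice in standard housing (SH) 24 h after sciatic nerve axotomy (SNA) or after sham surgery. Its members were the 6 samples that the labels place in these groups, 3 per group, of 12 samples in 4 groups in the whole series. The mice were C57BL/6, 5 to 8 weeks old and not genetically altered, and all of them had spent 10 days in standard cages before surgery. In SH SNA the sciatic nerve was transected completely. In SH Sham it was only exposed. The sciatic dorsal root ganglia (DRG, L4 to L6) of 2 mice were pooled into each sample, so that each group stands for 6 mice. Differences between mice of a pool were not measured. The remaining 6 samples had lived in an enriched environment (EE) and had the same surgeries (EE Sham and EE + SNA). They are used as a separate measurement of SNA and in fits of all 12 samples.

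DRG hold the cell bodies of sensory neurons that carry touch, limb position, temperature, itch and pain from skin, muscle and viscera, each wrapped in satellite glia and surrounded by Schwann cells, vessels and resident macrophages. When the peripheral axon is cut, the cell body loses its target and receives injury signals by axonal transport. It then turns on transcription factors such as ATF3, c-Jun and SOX11 and growth genes such as Gap43 and Sprr1a, while channels, receptors and transmitter machinery of the mature neuron tend to be turned down. Earlier injury of this kind can raise the growth of the central axon branch, which is why it is called a conditioning lesion.

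The 6 libraries held 11933367 to 17036481 reads counted on genes, and TMM scaling factors were 0.989 to 1.01. Values are given as CPM, the usual unit of read counts scaled to a common library size, for samples 1, 2 and 3 of a group in that order. A gene is said to have risen or fallen where edgeR's quasi-likelihood F test gave a Benjamini-Hochberg adjusted p under 0.05 over all 16238 genes tested, and fold changes are on the log2 scale, SH SNA over SH Sham, ± SE.

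Markers of the tissue itself were in place. The summed level of 10 sensory neuron genes was 11578, 11737 and 11914 CPM in SH Sham and 10478, 11055 and 10680 CPM in SH SNA. Every SNA sample thus lay below every sham sample, with a mean difference of −8.56%. Of the 10 genes 3 fell (30%, against 5.17% of all genes), among them the abundant Nefh, whose CPM are given below. In bulk tissue, fewer cells of a type, less RNA per cell and falls of single marker genes cannot be told apart. Skeletal muscle genes were uneven. Their sum over 30 genes was 137, 160 and 375 CPM in SH Sham and 209, 1978 and 220 CPM in SH SNA, so that SH SNA 2 stood far above all others and SH Sham 3 was the highest of the sham samples. All 27 tested muscle genes had a positive log2 fold change, and 4 passed the test (14.8%, against 6.06% of all genes that rose). Without SH SNA 2, 3 passed, without SH SNA 1, 12, and without SH SNA 3, 11. Without both SH SNA 2 and SH Sham 3, 18 passed. On the second principal component, which held 26% of the variance, SH Sham 3 lay at −16.5, SH SNA 2 at −19.5 and the other 4 between 0.13 and 17.6. The first component, with 43%, separated the surgeries.

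Markers of blood cells, glia and skin were also summed. The sum of 8 red blood cell genes was 254, 440 and 453 CPM in SH Sham against 592, 485 and 1257 CPM in SH SNA, and that of 18 macrophage genes 174, 193 and 180 CPM against 275, 201 and 258 CPM. For both, the groups did not overlap. The sum of 15 neutrophil genes (139, 244 and 91.8 CPM against 253, 150 and 390 CPM) and that of 14 myelinating Schwann cell genes (8306, 9414 and 7621 CPM against 10203, 8274 and 12194 CPM) overlapped between the groups, with SH SNA 2 the lowest SNA sample in each. With all samples, 5 of 18 tested macrophage genes (27.8%), 0 of 13 neutrophil genes and 1 of 14 myelin genes (7.14%) rose. The share of all tested genes that rose was 6.06%. When SH SNA 2 was left out, 8 macrophage, 6 neutrophil and 10 myelin genes rose, and so did 989 of all 16238 tested genes. With all samples DESeq2 called 0 neutrophil genes too, and 4 had an unadjusted p under 0.05. Leaving out any other sample left 1 to 3 macrophage genes, and leaving out SH Sham 2 left 5 neutrophil and 2 myelin genes. Without SH SNA 1, SH SNA 3, SH Sham 1 or SH Sham 3, 0 myelin genes passed. The sum of 15 epidermis genes was low, at 6.7, 8.02 and 8.27 CPM in SH Sham and 11.4, 11.2 and 12 CPM in SH SNA, without overlap of the groups. This sum included Lce1g and Cd207, the only 2 of 5 tested epidermis genes that rose (40%, against 6.06% of all genes). Both were listed with earlier results of these data known, so the separation of the sum is not independent of that choice. Of the other listed genes, Krt15, Flg, Ivl and Sprr1b had 0 reads in every sample, while Krt14 had 2 to 8, Lor 3 to 6 and Krtdap 3 to 13.

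**Figure D1:**
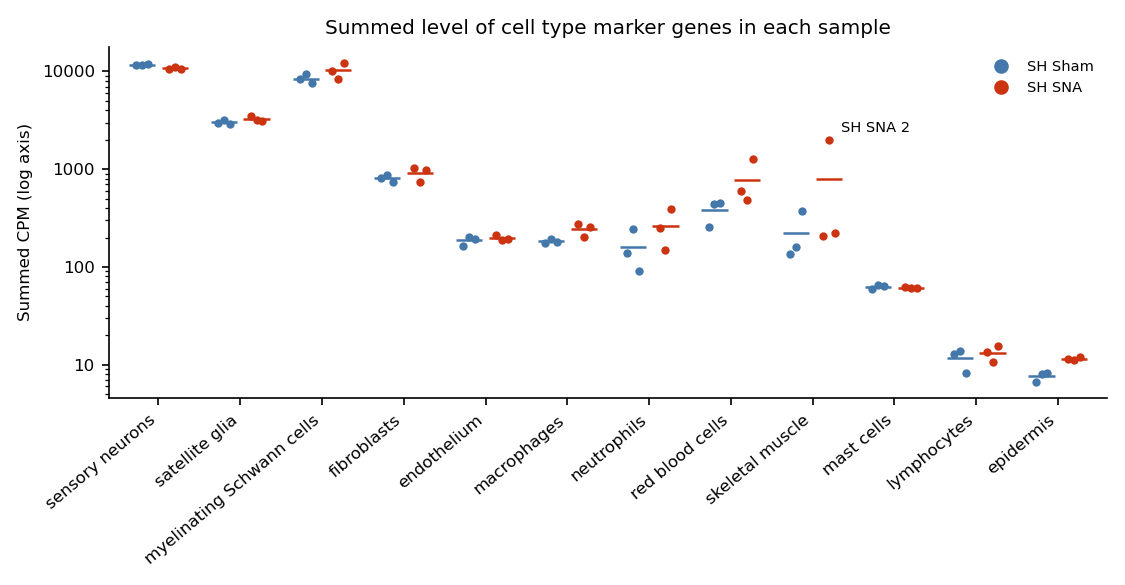
Summed CPM (log axis) of the marker genes of 12 cell types in each SH Sham and SH SNA sample, with points for samples and lines for group means. The sum of sensory neuron genes is lower in all SNA samples, and SH SNA 2 stands apart in skeletal muscle genes at 1978 CPM.

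SNA was followed by larger rises than falls. Of the tested genes, 6.06% (984) rose and 5.17% (839) fell. Among those that rose, 135 (13.7%) at least doubled, while 34 (4.05%) of those that fell were at most at 50% of the sham level. The median change was 0.447 for genes that rose and −0.397 for genes that fell, against 0.0047 over all tested genes. In 14.4% of the tested genes every SNA sample was above every sham sample, and in 14.9% below. Without SH SNA 1, which had the strongest influence on the falls, 683 genes rose and 524 fell. Without SH SNA 2, 989 genes rose and 694 fell, and 1409 of the 1823 calls were kept with their sign. Without SH SNA 2 and SH Sham 3, 788 rose and 519 fell.

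The largest rises, among genes averaging 1 CPM or more whose groups did not overlap, included genes at very low levels in sham ganglia. Npy, which encodes neuropeptide Y, read 1.18, 0.867 and 2.54 CPM in SH Sham and 15.1, 11.2 and 11.9 CPM in SH SNA (3.05 ± 0.27, adjusted p = 1.7e-05). Acvr1c, the activin and nodal receptor ALK7, read 0.353, 0.361 and 0.334 CPM and 3.23, 2.21 and 1.92 CPM (2.78 ± 0.33, adjusted p = 0.00022). Both were low in sham ganglia, and their groups were far apart. Areg, which encodes the EGF receptor ligand amphiregulin, went from 1.12, 1.45 and 1.67 CPM to 6.3, 6.62 and 6.71 CPM (2.21 ± 0.19, adjusted p = 1.4e-05).

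Others among the 12 largest rises were Igfn1 (3.11), Lce1g (3.04), Saa2 (2.93), 1110002E22Rik (2.54), Nrap (2.53), Saa1 (2.35), Cd207 (2.29) and Atf3 (2.12). Lce1g belongs to the late cornified envelope of skin and Cd207 encodes langerin of epidermal dendritic cells, and they read 1.69, 2.21 and 2.8 CPM and 1.92, 2.04 and 2.24 CPM in SH SNA. The other epidermis genes tested, Krt1 (−0.12), Krt10 (−0.08) and Sbsn (0.17), did not pass the test (adjusted p = 0.86, 0.86 and 0.74). Igfn1 and Nrap encode proteins of the muscle sarcomere. Igfn1 was highest in SH SNA 2 but kept its call without that sample (2.33, adjusted p = 0.0038). Nrap read 0.706, 1.01 and 2.54 CPM in SH Sham and 2.69, 18.7 and 3.35 CPM in SH SNA, highest in SH SNA 2 and, among the shams, in SH Sham 3, as the muscle sums were. Nrap and 1110002E22Rik lost their calls without SH SNA 2 (adjusted p = 0.1 and 0.086), SH Sham 1 (0.13 and 0.08) or SH Sham 2 (0.11 and 0.065). Of the muscle list, Abra and Ankrd1 were above all shams in every SNA sample. Abra read 0.118, 0.217 and 0 CPM and 1.69, 2.63 and 0.879 CPM, and Ankrd1 0.294, 0.0723 and 0.267 CPM and 0.768, 0.678 and 1.28 CPM, although Ankrd1 lost its call without SH SNA 3, SH Sham 2 or SH Sham 3 (adjusted p = 0.1, 0.072 and 0.054). Reads of the near-identical Saa1 and Saa2 cannot be separated with certainty.

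The 12 largest falls were smaller in size, from −1.50 to −1.25. Vwc2l, a secreted protein with a von Willebrand factor C domain, read 18.4, 16.99 and 19.1 CPM in SH Sham and 7.07, 8.14 and 7.03 CPM in SH SNA (−1.29 ± 0.11, adjusted p = 1.4e-05). Vstm2b, an immunoglobulin domain protein, read 11.2, 11.3 and 12.6 CPM and 6.07, 4.16 and 3.83 CPM (−1.32 ± 0.16, adjusted p = 0.00024). Cntn6, a contactin adhesion molecule of neurons, read 6.53, 6.5 and 6.81 CPM and 3, 2.38 and 2.72 CPM (−1.29 ± 0.15, adjusted p = 0.0002). In each of these every SNA sample lay well below every sham sample. Cdkl4, Chodl, Lrrc17, Dnahc6, Gal3st3, Akap5, Sowahb, Gm8104 and Mafa made up the rest, with changes from −1.50 (Gm8104) to −1.25 (Mafa). Akap5, Gm8104 and Sowahb, all under 2.1 CPM, lost their calls when 1 sample was left out (adjusted p = 0.056 to 0.093).

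**Figure D2:**
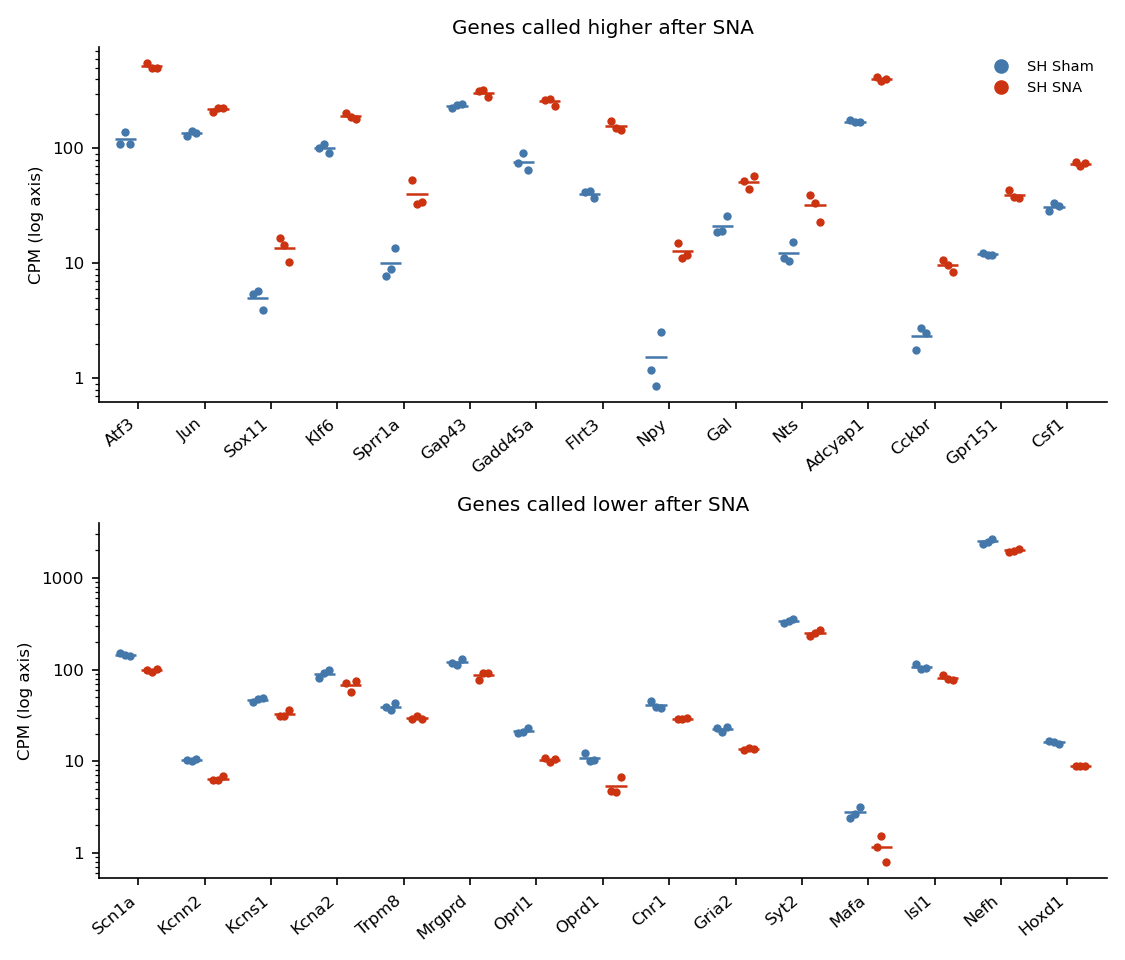
CPM (log axis) of 30 genes in each of the 3 SH Sham and 3 SH SNA samples, with lines for group means. In every gene shown, all SNA samples lie on 1 side of all sham samples, from Npy, which goes from 2.54 CPM or less to 11.2 CPM or more, to small shifts such as Nefh.

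Transcription factors of the regeneration response rose in most cases and none fell. Of 25 listed, 24 passed the filter on low counts and 14 rose (58.3%, against 6.06% of all genes), with a median of 0.34. Atf3, the stress factor whose induction marks axotomized neurons, read 110.1, 139 and 109.7 CPM in SH Sham and 551, 504 and 501 CPM in SH SNA (2.12 ± 0.09, adjusted p = 7.4e-08). It lies on chromosome 1 (191170296 to 191218039, minus strand, GRCm38). Sox11, a factor of embryonic neurons, read 5.47, 5.71 and 3.94 CPM and 16.6, 14.3 and 10.3 CPM (1.45 ± 0.18, adjusted p = 0.00035). The groups were far apart for both. Jun rose by 0.69 ± 0.06 (adjusted p = 1.5e-05), Klf6 by 0.92 ± 0.07 (adjusted p = 7.5e-06), Smad1 by 0.62 ± 0.07 (adjusted p = 0.00015) and Nfil3, a repressor that competes with CREB at its sites, by 1.30 ± 0.12 (adjusted p = 3e-05). Stat3, a mediator of cytokine signals in conditioning injury that is regulated mainly by phosphorylation, was at 0.17 ± 0.06 and did not pass the test (adjusted p = 0.077). With 1 sample left out, 12 to 14 of the factors rose.

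Genes of the growth cone and of axon growth behaved alike. Of 35 genes 20 rose (57.1%, against 6.06% of all genes), with a median of 0.32. Sprr1a, a small proline-rich protein of the cornified envelope that injured neurons also make, read 7.7, 8.96 and 13.5 CPM and 53.6, 32.8 and 34.3 CPM (2.01 ± 0.21, adjusted p = 9.1e-05). Flrt3, an adhesion and guidance protein, read 41.7, 42.8 and 37.04 CPM and 172, 149.8 and 146 CPM (1.94 ± 0.08, adjusted p = 6.3e-08). Gadd45a, a stress gene linked to DNA repair and demethylation, read 74.3, 91.2 and 64.8 CPM and 266, 269 and 235 CPM (1.74 ± 0.10, adjusted p = 1.2e-06). For each, the lowest SNA sample was far above the highest sham sample. An RNA on the opposite strand, E230016M11Rik, overlaps 19.1% of the exon bases of Gadd45a and rose by 1.67, and without a stated strand setting the reads of the 2 genes cannot be fully told apart.

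The abundant growth proteins moved less. Gap43 read 224, 239.7 and 243 CPM and 312, 321 and 280.4 CPM (0.37 ± 0.06, adjusted p = 0.0023), and the small heat shock protein Hspb1, which protects injured neurons, rose by 0.74 ± 0.06 (adjusted p = 8.6e-06). Stmn2 was at 0.18 ± 0.06 (adjusted p = 0.082), whereas its relative Stmn4, also a tubulin-binding stathmin, rose by 1.45 ± 0.09 (adjusted p = 1.2e-06). Among 54 tubulin and actin genes, which share members with the growth list, 11 rose (20.4%, against 6.06% of all genes) and 2 fell (3.7%, against 5.17%). The rises were led by Rnd1 (1.52), Stmn4, Tubb6 (1.16) and Rhoq (0.86). Ecel1, an endopeptidase induced in injured neurons, rose by 0.82 ± 0.20 (adjusted p = 0.017) but not when SH SNA 1 or SH Sham 1 was left out (adjusted p = 0.082 and 0.075).

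Promoter sequences of some of these genes hold the letters bound by injury-induced factors. RefSeq windows of 300 bases (250 before to 50 after the start, GRCm38.p6) were searched on both strands for TGACTCA (the AP-1 element, to which c-Jun and ATF3 dimers bind), TGACGTCA (the cyclic AMP response element, CRE), TTCNNNGAA (a STAT element) and CACGTG (an E-box). A window was matched for 11950 of the 16238 tested genes, 73.6%, and for 753 of the genes that rose, 76.5%. This is under 80%, so that a comparison of the sets is void, and the shares are given only as a description of the matched genes. AP-1 letters were in 7.04% of the windows of genes that rose, 5.28% of those of genes that fell and 4.59% of all, CRE letters in 3.45%, 3.36% and 3.4%, STAT letters in 9.3%, 7.2% and 8.25%, and the E-box in 11.3%, 11.2% and 11.1%.

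The windows of 3 genes that rose are shown 5′ to 3′ on the gene's strand, with the matched letters in capitals, because they hold the AP-1, CRE and STAT letters. They are Sprr1a (chr3:92485832-92486131, minus strand, AP-1), Areg (chr5:91139349-91139648, plus strand, CRE) and the cytokine signalling inhibitor Socs3 (chr11:117969317-117969616, minus strand, STAT).
Sprr1a: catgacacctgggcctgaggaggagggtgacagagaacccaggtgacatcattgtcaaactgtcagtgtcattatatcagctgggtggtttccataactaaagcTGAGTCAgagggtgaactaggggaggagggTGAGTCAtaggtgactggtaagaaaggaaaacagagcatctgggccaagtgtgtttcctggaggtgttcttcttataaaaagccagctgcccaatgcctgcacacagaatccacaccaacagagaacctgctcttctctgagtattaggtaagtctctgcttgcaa
Areg: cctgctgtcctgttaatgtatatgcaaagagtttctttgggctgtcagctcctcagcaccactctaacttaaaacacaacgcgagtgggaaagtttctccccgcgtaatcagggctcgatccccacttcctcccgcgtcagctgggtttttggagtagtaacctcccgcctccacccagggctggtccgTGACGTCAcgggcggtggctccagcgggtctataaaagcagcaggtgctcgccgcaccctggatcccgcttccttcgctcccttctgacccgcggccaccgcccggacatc
Socs3: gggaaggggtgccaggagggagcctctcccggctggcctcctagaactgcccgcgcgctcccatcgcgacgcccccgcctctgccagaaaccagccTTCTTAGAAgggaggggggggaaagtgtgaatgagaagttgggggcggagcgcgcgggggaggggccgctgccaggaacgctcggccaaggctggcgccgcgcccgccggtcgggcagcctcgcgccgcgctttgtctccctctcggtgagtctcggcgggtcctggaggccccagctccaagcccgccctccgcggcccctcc
Sprr1a carries the AP-1 letters at 2 places. A match is not evidence of binding, and the windows of Atf3, Gadd45a, Flrt3 and Npy held none of these letters.

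Neuropeptides were split between a set that rose and the main peptides of sham ganglia, which did not. Of 24 listed, 19 passed the filter, 6 rose (31.6%, against 6.06% of all genes) and 2 fell (10.5%, against 5.17%). Galanin (Gal), which dampens sensory transmission after nerve injury, read 18.7, 19.2 and 26.02 CPM and 52.4, 44.7 and 57.3 CPM (1.27 ± 0.13, adjusted p = 5.4e-05). Neurotensin (Nts) read 11.1, 10.4 and 15.3 CPM and 39.6, 33.2 and 22.9 CPM (1.38 ± 0.19, adjusted p = 0.00054). Adcyap1, which encodes the trophic peptide PACAP, read 176, 169 and 168 CPM and 420.5, 386 and 400.5 CPM (1.23 ± 0.06, adjusted p = 1.3e-07). For all 3 peptides, as for Npy, every SNA sample was above every sham sample. Vgf, a precursor of secreted peptides, rose by 0.52 ± 0.10 (adjusted p = 0.0057). Ucn, urocortin, rose by 2.40 ± 0.65 at no more than 1.44 CPM, a call lost with any of 4 samples left out (adjusted p = 0.079 to 0.12). The secretory granule proteins Chga (−0.37) and Chgb (−0.30) fell, and 1 of them did without SH SNA 1, SH Sham 2 or SH Sham 3.

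The peptides of nociceptors kept overlapping groups. Calca, which encodes CGRP, read 1466, 1427 and 1550 CPM and 1630, 1690 and 1435 CPM (0.10 ± 0.07, adjusted p = 0.44), and Tac1, which encodes substance P, read 349, 298 and 326 CPM and 319, 314 and 286 CPM (−0.08 ± 0.07, adjusted p = 0.5). On the scale of FPKM, which divides by gene length and so allows genes to be compared, the mean level in SH SNA was 1059 for Calca, 293 for Tac1, 190 for Adcyap1, 83.1 for Vgf, 71.5 for Gal, 26.8 for Nts, 22.2 for Npy and 1.9 for Ucn. These 6 peptides, which rose, thus remained below CGRP and substance P.

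Receptors for peptides and transmitters fell more often than they rose. Of 46 listed, 38 passed the filter, with a median of −0.27. Of these, 12 fell (31.6%, against 5.17% of all genes) and 4 rose (10.5%, against 6.06%). Oprl1, the nociceptin receptor, read 20.6, 20.7 and 22.9 CPM and 10.99, 9.84 and 10.6 CPM (−1.03 ± 0.10, adjusted p = 3.7e-05). Oprd1, the delta opioid receptor, read 12.3, 10.2 and 10.3 CPM and 4.69, 4.58 and 6.79 CPM (−1.03 ± 0.16, adjusted p = 0.0013). The mean SNA level of both was near 50% of the sham level, without overlap of the groups. Oprm1, the mu receptor on which morphine acts, was at −0.07 ± 0.11 with overlapping groups (adjusted p = 0.76), and the cannabinoid receptor Cnr1 fell by 0.49 ± 0.09 on the log2 scale (adjusted p = 0.0027). The 4 that rose were Cckbr, the brain-type cholecystokinin receptor (1.76, 2.75 and 2.47 CPM against 10.8, 9.67 and 8.39 CPM, 2.06 ± 0.18, adjusted p = 1.7e-05), the galanin-related orphan receptor Gpr151 (12.4, 11.9 and 11.8 CPM against 43.6, 38.2 and 37.2 CPM, 1.72 ± 0.09, adjusted p = 6.4e-07), the bradykinin receptor Bdkrb2 (0.93) and the neuropeptide Y receptor Npy1r (0.73). With 1 sample left out, 9 to 11 fell and 4 or 5 rose.

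Channels of excitability fell more often than they rose. Of 64 potassium and HCN channel genes, 63 passed the filter and 22 fell (34.9%, against 5.17% of all genes), with a median of −0.23. Kcnh7, of the ERG family, read 222, 190.2 and 181 CPM and 119, 121 and 129.7 CPM (−0.68 ± 0.07, adjusted p = 0.00011). Kcnn2, a calcium-activated SK channel, read 10.4, 10.2 and 10.7 CPM and 6.3, 6.19 and 6.87 CPM (−0.69 ± 0.11, adjusted p = 0.0017). Kcns1, a modulatory subunit linked to pain sensitivity, read 44.6, 47.8 and 48.98 CPM and 31.1, 31.2 and 36.03 CPM (−0.52 ± 0.08, adjusted p = 0.0011). No sham sample overlapped an SNA sample in these 3 genes. Kcng3 (−0.93) and the TRESK channel Kcnk18 (−0.67) fell too, while the delayed-rectifier Kcna1 (−0.09 ± 0.06, adjusted p = 0.32) and the glial Kcnj10 (0.08 ± 0.08, adjusted p = 0.54) did not pass the test. The count depended on SH Sham 3, without which 12 fell. Kcna2 (−0.40), Kcnb2 (−0.33) and Kcnk18 lost their calls when 1 sample was left out (adjusted p = 0.053 to 0.089).

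Of 14 sodium channel genes 4 fell (28.6%, against 5.17% of all genes), with a median of −0.18. Scn1a, the Nav1.1 channel of myelinated neurons, read 154, 144 and 141 CPM and 98.9, 94.1 and 102 CPM (−0.57 ± 0.06, adjusted p = 5.4e-05). The beta subunit gene Scn4b fell by 0.35 ± 0.05 (adjusted p = 0.0011) and Scn8a by 0.32 ± 0.07 (adjusted p = 0.0099) on the log2 scale. The nociceptor channels were lower without passing the test: Scn9a at −0.18 ± 0.06 (adjusted p = 0.086), Scn10a at −0.18 ± 0.10 (adjusted p = 0.26) and Scn11a at −0.09 ± 0.09 (adjusted p = 0.61). Scn3a, the embryonic Nav1.3 channel known to return after axotomy, was at 0.06 ± 0.17 (adjusted p = 0.87) and 3.74 to 5.23 CPM in the 6 samples. Scn2b (−0.25) lost its call with any of 5 samples left out (adjusted p = 0.056 to 0.11).

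Of 21 tested genes named as calcium channel subunits 3 fell (14.3%, against 5.17% of all genes) and 1 rose (4.76%, against 6.06%). The gene that rose was Cacna2d1, the alpha2delta-1 subunit that gabapentin binds and that is known to rise in injured DRG, with 309, 282 and 269.9 CPM in SH Sham and 386, 401 and 376 CPM in SH SNA (0.43 ± 0.06, adjusted p = 0.00075). Its relative Cacna2d2 fell by 0.44 ± 0.11 on the log2 scale (adjusted p = 0.019), a call lost without SH SNA 1 or SH Sham 3 (adjusted p = 0.075 and 0.077). Without SH SNA 1, 2 genes rose. The other 2 that fell, Cacng5 (−0.69) and Cacng2 (−0.45), were listed by name and belong to a family of auxiliary subunits that also serves AMPA receptors.

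Transducers of heat, touch, acid and ATP moved in both directions. Of 31 listed, 28 passed the filter, 6 fell (21.4%, against 5.17% of all genes) and 4 rose (14.3%, against 6.06%). Trpm8, the cold receptor, read 39.6, 36.1 and 42.8 CPM and 28.9, 30.9 and 29.1 CPM (−0.42 ± 0.08, adjusted p = 0.0056), and the acid-sensing channel Asic1 fell by 0.56 ± 0.08 on the log2 scale (adjusted p = 0.00096). The heat receptor Trpv1 (−0.03 ± 0.07, adjusted p = 0.86), the touch channel Piezo2 (0.03 ± 0.07, adjusted p = 0.87), the irritant receptor Trpa1 (0.08 ± 0.06, adjusted p = 0.51) and the ATP receptor P2rx3 (0.19 ± 0.08, adjusted p = 0.14) all had overlapping groups. Ano6, an ion channel and lipid scramblase, rose (0.46). Tmc3 fell (−0.60), and 43.9% of its exon bases are shared with a gene on the opposite strand. Without SH Sham 1 or SH Sham 2, 2 of these genes rose.

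Of 23 tested itch receptors 5 fell (21.7%, against 5.17% of all genes) and 1 rose (4.35%, against 6.06%). Mrgprd, which marks non-peptidergic nociceptors of the skin, read 118, 114 and 131 CPM and 77.2, 91.1 and 91.7 CPM (−0.48 ± 0.08, adjusted p = 0.0016), and the serotonin receptor Htr7 fell by 0.57 ± 0.11 on the log2 scale (adjusted p = 0.0053). Htr2b rose (1.80) at 1.02 CPM or less. Its call, and those of Mrgprb5 (−1.08) and Ednra (−0.67), were each lost with 3 or 4 of the 6 samples left out in turn (adjusted p = 0.053 to 0.092). Without SH SNA 3 or SH Sham 2, 3 of the list fell. The Mrgpr genes are close copies of each other, so that reads may be split among them.

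Among synaptic genes, too, falls were the more frequent. Of 43 GABA, glycine and glutamate receptor subunits, 31 passed the filter, with a median of −0.18. Of these, 9 fell (29%, against 5.17% of all genes). Gria2, the subunit that makes AMPA receptors impermeable to calcium, read 23.1, 21.1 and 23.4 CPM and 13.4, 14 and 13.5 CPM (−0.72 ± 0.09, adjusted p = 0.00028). Of 51 tested genes of vesicle release 11 fell (21.6%, against 5.17% of all genes) and 2 rose (3.92%, against 6.06%). Sv2b, a vesicle glycoprotein, read 319, 309.6 and 302 CPM and 222, 218 and 223 CPM (−0.49 ± 0.05, adjusted p = 7.4e-05), and the fast calcium sensor Syt2 322, 341 and 359.8 CPM and 236, 249 and 274 CPM (−0.43 ± 0.07, adjusted p = 0.0013). Syt4, a synaptotagmin without fast calcium sensing, rose by 0.59 ± 0.07 (adjusted p = 0.00031). Doc2b (0.81) rose too, though not with any of 5 samples left out (adjusted p = 0.052 to 0.14). Without SH Sham 3, 5 receptor subunits fell, and without SH Sham 2, 7 vesicle genes did.

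Transcription factors that define sensory neurons and their subtypes fell more often than they rose. Of 36 listed, 32 passed the filter, with a median of −0.24. Of these, 12 fell (37.5%, against 5.17% of all genes) and 1 rose (3.12%, against 6.06%). Scrt1, a neuronal repressor of the Scratch family, read 67.3, 66.6 and 64.9 CPM and 37.9, 36.5 and 34.3 CPM (−0.87 ± 0.06, adjusted p = 5.7e-06). Esrrg, an orphan nuclear receptor, read 43.6, 44.2 and 38.4 CPM and 24.1, 20.7 and 25.01 CPM (−0.85 ± 0.09, adjusted p = 9.6e-05). The groups of both were well separated. Mafa, which marks mechanoreceptors, read 2.41, 2.67 and 3.2 CPM and 1.15, 1.53 and 0.799 CPM (−1.25 ± 0.26, adjusted p = 0.0088), and the pan-sensory factor Isl1 fell by 0.42 ± 0.07 on the log2 scale (adjusted p = 0.0017). Pou4f1, or BRN3A, was at −0.23 ± 0.07 (adjusted p = 0.054) and Runx1 at −0.13 ± 0.08 (adjusted p = 0.34). The number that fell was 10 to 12 with 1 sample left out. The gene that rose, Myt1l (0.22), did not rise without SH SNA 2, SH Sham 1 or SH Sham 2. Among 29 tested Hox genes, which keep the position of a neuron along the body axis, 5 fell (17.2%, against 5.17% of all genes). They were Hoxb6 (−0.96), Hoxd1 (−0.87), Hoxb8 (−0.55), Hoxa10 (−0.36) and Hoxa9 (−0.30). Hoxd1, which acts in nociceptor wiring, read 16.7, 16.4 and 15.6 CPM and 8.99, 8.82 and 8.87 CPM. Without SH Sham 2, 2 Hox genes fell, and Hoxb8, Hoxa9 and Hoxa10 lost their calls (adjusted p = 0.052 to 0.074).

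The falls of these neuronal lists stood beside the lower sum of sensory neuron markers given above, of which Isl1, Nefh and Rbfox3 passed the test. The mean difference of the sum was −8.56%. On the log2 scale the 10 markers had a median of −0.20, and 3 of them fell (30%, against 5.17% of all genes). The markers Isl1, Pou4f1 and Scn9a were also members of these lists, so markers and lists are not independent. Medians of the potassium channel, peptide receptor and identity factor lists were −0.23, −0.27 and −0.24, with 34.9%, 31.6% and 37.5% lower. Those of the sodium channel, receptor subunit and vesicle release lists were −0.18, −0.18 and −0.07. Single genes fell further, such as Oprl1 by 1.03, Scrt1 by 0.87 and Hoxd1 by 0.87. What part the lower marker level had in the falls was not tested. Neurofilaments, the structural proteins of large axons, were lower, and 1 of them passed the test. Nefh read 2383, 2499 and 2642 CPM and 1950, 1993 and 2078 CPM (−0.32 ± 0.07, adjusted p = 0.0073). Nefl and Nefm, which share exon bases with each other on opposite strands, were at −0.21 ± 0.07 (adjusted p = 0.072) and −0.23 ± 0.07 (adjusted p = 0.056). Without SH SNA 2, 3 filament genes fell. The glial filaments Gfap (0.58) and Vim (0.26) rose, but not without SH SNA 1, SH Sham 1 or SH Sham 3 (adjusted p = 0.089 to 0.16), and Vim not without SH SNA 3 either (0.081). Of 44 motor proteins, which carry cargo along the axon, 2 rose (4.55%, against 6.06% of all genes) and 1 fell (2.27%, against 5.17%). These numbers moved between 1 and 2 and between 0 and 2 as each sample was left out. Kif5a, the main neuronal kinesin, was at −0.07 ± 0.08 (adjusted p = 0.65).

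**Figure D3:**
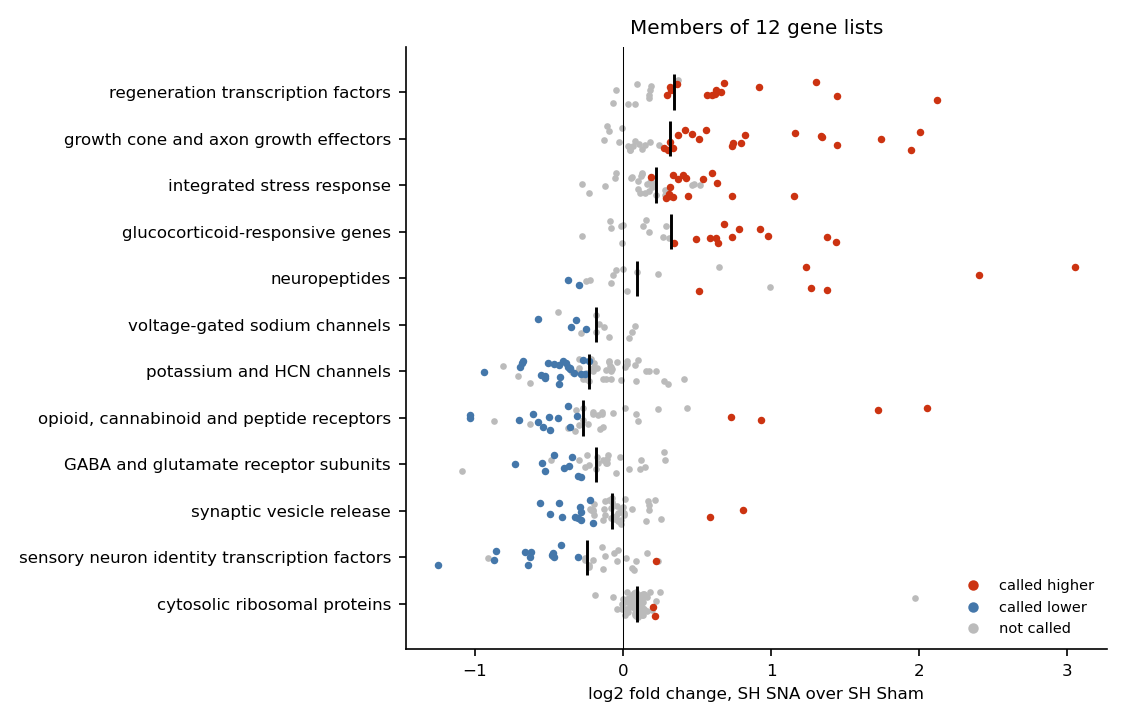
Log2 fold change (SH SNA over SH Sham) of each tested member of 12 gene lists, with points coloured by call and black lines for medians. Regeneration factors and growth genes lie to the right with medians of 0.34 and 0.32, and potassium channels, receptors and identity factors to the left with medians of −0.23 to −0.27.

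Genes of growth factor signalling moved in both directions. Of 19 listed neurotrophin and GDNF family genes, 14 passed the filter, 3 rose (21.4%, against 6.06% of all genes) and 1 fell (7.14%, against 5.17%). Gfra1, the GDNF co-receptor, read 195, 188 and 208 CPM and 377, 365 and 388 CPM (0.93 ± 0.06, adjusted p = 1.6e-06). Gfra3, the artemin co-receptor, rose by 0.41 ± 0.09 (adjusted p = 0.0095), Gfra2, the neurturin co-receptor, fell by 0.39 ± 0.11 on the log2 scale (adjusted p = 0.038), and their shared kinase Ret was at 0.22 ± 0.07 (adjusted p = 0.063). The 3 co-receptors thus did not move in 1 direction. Bdnf rose from 117, 112 and 114 CPM to 150, 152 and 141 CPM (0.37 ± 0.05, adjusted p = 0.00077). The neurotrophin receptors Ntrk2 (−0.03 ± 0.05) and Ntrk3 (−0.04 ± 0.10) did not pass the test (adjusted p = 0.77 and 0.86). The fall of Gfra2 was lost with any of 4 samples left out (adjusted p = 0.052 to 0.14), and without SH SNA 2, 2 genes of the list fell.

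In activin, TGF-beta and BMP signalling 9 of 53 genes rose (17%, against 6.06% of all genes) and 4 fell (7.55%, against 5.17%). Beside Acvr1c, the activin antagonist follistatin (Fst) rose from 13.2, 14.1 and 13.8 CPM to 33.5, 25.4 and 27 CPM (1.07 ± 0.11, adjusted p = 7.2e-05), and the BMP antagonist Nog fell from 6.17, 5.06 and 5.34 CPM to 2.77, 2.88 and 1.52 CPM (−1.21 ± 0.22, adjusted p = 0.0032). Of the BMP-responsive SMAD factors, Smad1 rose and Smad9 fell by 0.77 on the log2 scale. Inhba, an activin subunit, rose (1.82) at 1.84 CPM or less, a call lost with any of 4 samples left out (adjusted p = 0.059 to 0.071). Without SH SNA 1 or SH Sham 1, 5 of these genes rose. In the EGF family Areg and the receptor regulator Lrig1 (0.60) rose, and neuregulin Nrg1, a signal from axons to Schwann cells, fell from 55.2, 55.1 and 55.1 CPM to 43.3, 42.1 and 40.02 CPM (−0.40 ± 0.06, adjusted p = 0.0014).

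Of 67 guidance genes 5 rose (7.46%, against 6.06% of all genes) and 7 fell (10.4%, against 5.17%). Sema6a, a transmembrane semaphorin, read 41.5, 45.1 and 38.4 CPM and 149, 141 and 137 CPM (1.77 ± 0.07, adjusted p = 6.3e-08). Unc5b (−0.65), the Nogo receptor relative Rtn4rl1 (−0.64) and Ntng1 (−0.64) were the largest falls. Of 26 integrins 4 rose (15.4%, against 6.06% of all genes). Itga7, a laminin receptor subunit that neurons raise after axotomy, read 194, 223 and 214 CPM and 372, 412 and 404 CPM (0.91 ± 0.07, adjusted p = 4.8e-06), and its partner Itgb1 rose by 0.40 ± 0.05 (adjusted p = 0.00049). Itga3 (0.44) and Itgam (0.58) were the others, and 68.7% of the exon bases of Itgam are shared with another gene. Itgam lost its call with any of 4 samples left out (adjusted p = 0.11 to 0.15). Of 42 collagen and matrix genes edgeR called 0 and DESeq2 1, with 8 higher at an unadjusted p under 0.05, and without SH SNA 2 or SH Sham 2, 4 rose.

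Some signals to immune cells rose. Of 38 listed chemokine and CSF1 genes, 24 passed the filter and 6 rose (25%, against 6.06% of all genes). Csf1, the macrophage growth factor that injured sensory neurons release, read 28.6, 33.3 and 31.6 CPM and 76.1, 69.7 and 75.1 CPM (1.24 ± 0.07, adjusted p = 1.2e-06). Ccl9 (1.33) and Ccl6 (1.17) rose with it, whereas the monocyte attractant Ccl2 was at 0.19 ± 0.18 (adjusted p = 0.55). Ccl12 rose by 1.13 but lost its call with any of 4 samples left out (adjusted p = 0.058 to 0.11). Without SH SNA 3 or SH Sham 1, 3 genes of the list rose.

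In IL-6 and STAT3 signalling 4 of 21 rose (19%, against 6.06% of all genes). Il6 read 1.65, 1.3 and 1.4 CPM and 3.3, 2.38 and 3.2 CPM (1.02 ± 0.23, adjusted p = 0.011), Socs3, which STAT3 induces, read 21.7, 25.2 and 26.9 CPM and 29.4, 34.3 and 38.5 CPM (0.47 ± 0.11, adjusted p = 0.016), and Socs2 (0.34) and Cish (0.47) rose beside them. Each of Il6, Socs3 and Cish lost its call with 1 to 3 of the samples left out in turn (adjusted p = 0.055 to 0.11). Without SH SNA 3 or SH Sham 1, 2 genes of the list rose.

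Complement and antigen presentation genes (5 of 33 higher), interferon-responsive genes (5 of 38) and Toll-like, IL-1 and TNF genes (6 of 40) rose in shares of 13.2% to 15.2%, against 6.06% of all genes. These counts moved with single samples, from 1 to 9 for the complement list (9 without SH SNA 2, 1 without SH SNA 1 or SH Sham 1, and 2 without any of the other 3), from 2 to 6 for the interferon list (2 without SH SNA 1, SH Sham 1 or SH Sham 3) and from 2 to 8 for the Toll-like list (8 without SH SNA 2, 2 without SH SNA 1 or SH Sham 1, and 3 without SH SNA 3). The complement receptors C3ar1 (1.14) and C5ar1 (0.83) rose, C1qa was at 0.37 ± 0.14 (adjusted p = 0.11), and Cd55, a complement inhibitor, fell from 448, 382 and 421 CPM to 291, 351 and 315 CPM (−0.39 ± 0.08, adjusted p = 0.0061). C3ar1 lost its call without SH Sham 1 (adjusted p = 0.059) and C5ar1 with any of 4 samples left out (adjusted p = 0.055 to 0.069). Ifit1, an interferon-induced protein, rose from 48.4, 51.3 and 52.3 CPM to 81.5, 84.6 and 65.3 CPM (0.61 ± 0.09, adjusted p = 0.00085), and the TNF receptor Tnfrsf1b by 0.89 ± 0.13 (adjusted p = 0.00077). Tnf itself had 0 to 2 reads per sample and did not pass the filter. The macrophage and neutrophil sums given above were also highest in SH SNA 1 and SH SNA 3, and their part in these counts was not tested.

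Of 27 acute phase and metallothionein genes, 20 passed the filter and 8 rose (40%, against 6.06% of all genes). Mt1 and Mt2, metal-binding stress proteins, read 191, 164 and 247 CPM and 206, 159 and 278 CPM in SH SNA against 95.6, 125 and 128 CPM and 92.1, 134 and 117 CPM in SH Sham (0.79 ± 0.14 and 0.91 ± 0.17, adjusted p = 0.0024 and 0.0043). The SNA samples were above all shams, with SH SNA 3 the highest, as for the red blood cell and neutrophil sums. The neutrophil-associated Lcn2 was at 0.67 ± 0.34 with overlapping groups (adjusted p = 0.25). Of the exon bases of Mt2, 73.5% are shared with a gene on the opposite strand.

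Glucocorticoid-responsive genes rose in SH SNA, 12 of 24 tested (50%, against 6.06% of all genes), with a median of 0.33. Plin4, a lipid droplet protein, read 4.29, 14.8 and 13.1 CPM and 32.8, 22.7 and 30.6 CPM (1.44 ± 0.30, adjusted p = 0.009), and Cdkn1a, the cell cycle inhibitor p21, which p53 also induces, 106, 132 and 116 CPM and 229, 217 and 224 CPM (0.92 ± 0.07, adjusted p = 9.3e-06). Fkbp5, a chaperone of the glucocorticoid receptor, read 55.1, 73.7 and 78.6 CPM and 92.3, 91.1 and 108 CPM (0.49 ± 0.11, adjusted p = 0.013). SH Sham 1 was the lowest sample for all 3, and for Plin4 it lay far below the other shams. Tsc22d3, or GILZ, a classic target of the receptor, was at −0.08 ± 0.08 (adjusted p = 0.61), and Sgk1 at 0.31 ± 0.12 (adjusted p = 0.11). Without SH SNA 3, 7 of the list rose, and Fkbp5 lost its call (adjusted p = 0.054).

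Of 21 tested clock genes 6 rose (28.6%, against 6.06% of all genes), led by Nfil3. Dbp (−0.33 ± 0.16, adjusted p = 0.22) and Nr1d1 (−0.11 ± 0.06, adjusted p = 0.31), which follow the time of day closely, did not pass the test. Without SH Sham 1, 3 rose. Immediate early genes, which answer neuronal activity within minutes, rose in 6 of 27 cases (22.2%), of which the largest were Ier5 (0.75), Jun, Btg2 (0.68) and Dusp1 (0.59). Fos (−0.18 ± 0.13, adjusted p = 0.41) and Egr1 (−0.41 ± 0.20, adjusted p = 0.23) did not pass the test. Without SH SNA 1 or SH Sham 1, 3 of these genes rose, and Ier5 lost its call (adjusted p = 0.053 and 0.05).

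The integrated stress response is the program that cells turn on under amino acid shortage or protein load. Of 41 tested genes of this program 16 rose (39%, against 6.06% of all genes), with a median of 0.23. Chac1, which degrades glutathione, read 7.53, 10.3 and 8.94 CPM and 20.4, 20.02 and 19.2 CPM (1.16 ± 0.12, adjusted p = 6.8e-05). Ppp1r15a, or GADD34, which restores translation, read 42.5, 45.2 and 42.5 CPM and 72.7, 71.2 and 72.8 CPM (0.74 ± 0.06, adjusted p = 9.9e-06). Both were above all shams in every SNA sample. Ddit3, or CHOP, rose by 0.43 ± 0.07 and the mitochondrial folate enzyme Mthfd2 by 0.37 ± 0.07 (adjusted p = 0.0025 and 0.0033), while asparagine synthetase Asns was at 0.13 ± 0.05 (adjusted p = 0.14). Sesn2 (0.64) and Trib3 (0.60) rose but lost their calls with 2 or 3 samples left out in turn (adjusted p = 0.058 to 0.071). With 1 sample left out, 12 to 15 rose.

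Few chaperones rose. Of 34 endoplasmic reticulum chaperone genes 2 rose (5.88%, against 6.06% of all genes), Hspa5, or BiP (0.33 ± 0.06, adjusted p = 0.0036) and the unfolded protein response factor Xbp1 (0.38 ± 0.06, adjusted p = 0.0012), and without SH Sham 2, 4 rose. Of 35 heat shock genes 4 rose (11.4%), Hspb1, Cryab (0.32), Hspb8 (0.25) and Dnajb6 (0.18), and Hspa1a was at 0.26 ± 0.17 (adjusted p = 0.38). Without SH SNA 2 or SH Sham 1, 2 rose. Cryab lost its call with any of 4 samples left out and Dnajb6 with any of 5 (adjusted p = 0.053 to 0.15).

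Among 40 tested genes of axotomy stress kinases and survival 9 rose (22.5%, against 6.06% of all genes) and 1 fell (2.5%, against 5.17%). Phlda1 (1.02) rose beside Gadd45a and Cdkn1a. The survival gene Bcl2 fell from 62.6, 63.1 and 63.7 CPM to 49.5, 48.9 and 51.3 CPM (−0.34 ± 0.06, adjusted p = 0.0022). Map3k12, or DLK, the kinase that relays the axotomy signal, was at −0.12 ± 0.05 (adjusted p = 0.17). Ornithine decarboxylase Odc1, the entry to polyamine synthesis, read 92.1, 102 and 89.8 CPM and 162, 156 and 169.7 CPM (0.78 ± 0.06, adjusted p = 8.6e-06), and the antizyme inhibitor Azin1, which stabilizes it, rose by 0.74 ± 0.06 (adjusted p = 1.5e-05). In all, 5 of 16 polyamine genes rose (31.2%), and 3 without SH SNA 1, SH SNA 2 or SH Sham 1. Arg1, the arginase known from conditioning injury, had 4 or 5 reads in each sample and did not pass the filter.

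The list of diacylglycerol signalling, with its kinases and protein kinase C, held 39 tested genes. Of these, 10 fell (25.6%, against 5.17% of all genes) and 1 rose (2.56%, against 6.06%). The falls were led by Dgkg (19.9, 20.5 and 21.9 CPM against 13.2, 13.9 and 14.4 CPM, −0.59 ± 0.09, adjusted p = 0.0013) and Rasgrp1 (−0.50). Without SH Sham 1 or SH Sham 3, 5 fell, and without SH SNA 1, 6 did. The gene that rose, Dgkd (0.24), lost its call whichever sample was left out. Of 48 MAPK and receptor phosphatases 8 rose (16.7%, against 6.06% of all genes) and 2 fell (4.17%, against 5.17%). The largest rise was that of Ptpn5, or STEP (0.71 ± 0.13, adjusted p = 0.0036), and 3 rose without SH Sham 2, 4 without SH SNA 1 and 5 without SH Sham 3. With any sample left out, 1 phosphatase fell.

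Ribosomal and respiratory chain genes held few calls. Of 84 tested cytosolic ribosomal proteins 2 rose (2.38%, and 0 to 3 with 1 sample left out), although 79 had a positive log2 fold change, with a median of 0.09. Of 80 nuclear-encoded subunits of oxidative phosphorylation edgeR and DESeq2 called 0, and 5 had an unadjusted p under 0.05, while without SH SNA 3, 1 rose. Of 11 mitochondrially encoded subunits both tools called 0, and 0 had an unadjusted p under 0.05. The muscle forms Cox6a2, Rpl3l and Hspb7 were highest in SH SNA 2, at 7.21 CPM, 4.24 CPM and 31.6 CPM. Slc2a1, the glucose transporter GLUT1, rose from 60.1, 72.3 and 74.7 CPM to 126, 109 and 121 CPM (0.79 ± 0.08, adjusted p = 7.9e-05). In all, 4 of 30 glycolysis and hypoxia genes rose (13.3%, against 6.06% of all genes). Of 41 redox genes 4 rose (9.76%) and 1 fell (2.44%, against 5.17% of all genes). The rises were led by sulfiredoxin Srxn1 (534, 565 and 559 CPM against 1040, 961 and 1008 CPM, 0.86 ± 0.06, adjusted p = 3.6e-06) and thioredoxin reductase Txnrd1 (0.43 ± 0.06, adjusted p = 0.00061), and the glutathione synthesis gene Gclc fell (−0.36). Without SH SNA 2, 7 redox genes and 2 glycolysis genes rose. Without SH Sham 1, 2 of each list rose, and without SH SNA 3, 2 redox genes.

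Among chromatin genes, 2 of 14 DNA methylation and TET genes rose (14.3%, against 6.06% of all genes). They were Tet3, which oxidizes methylcytosine (31.9, 32.7 and 27.03 CPM against 51.7, 45.5 and 46.8 CPM, 0.65 ± 0.09, adjusted p = 0.00046), and Dnmt1 (0.36), the latter not without SH SNA 3, SH Sham 1 or SH Sham 3 (adjusted p = 0.058 to 0.084). Of 30 histone acetyltransferases and deacetylases 1 fell (3.33%, against 5.17% of all genes), Hdac11 (−0.32). Of 42 cell cycle genes 4 rose (9.52%), Prc1 (0.99), Cdkn1a, Tpx2 (0.50) and Mcm7 (0.39), while the proliferation marker Mki67 was at 0.70 ± 0.35 with overlapping groups (adjusted p = 0.23). With any of 5 samples left out, 2 rose, since Tpx2 lost its call with each sample left out and Mcm7 with 5 of them (adjusted p = 0.05 to 0.14).

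The remaining lists held at most 2 calls in each direction. In 20 vascular genes 2 rose (10%, against 6.06% of all genes) and 2 fell (10%, against 5.17%), among them Angpt1, a ligand that stabilizes vessels (−0.999 ± 0.16, adjusted p = 0.0017). Of 26 cholesterol synthesis genes 1 rose (3.85%), and of 22 fatty acid synthesis genes 1 rose and 1 fell (4.55% each). Of 35 proteasome genes 2 rose (5.71%) and 1 fell (2.86%), and of 35 ribosome biogenesis genes 1 rose (2.86%). Gch1, the entry enzyme of tetrahydrobiopterin synthesis, rose by 0.47 ± 0.13 (adjusted p = 0.03), but not with any of 4 samples left out (adjusted p = 0.058 to 0.14). With 1 sample left out, each of these counts stayed between 0 and 3.

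**Figure D4:**
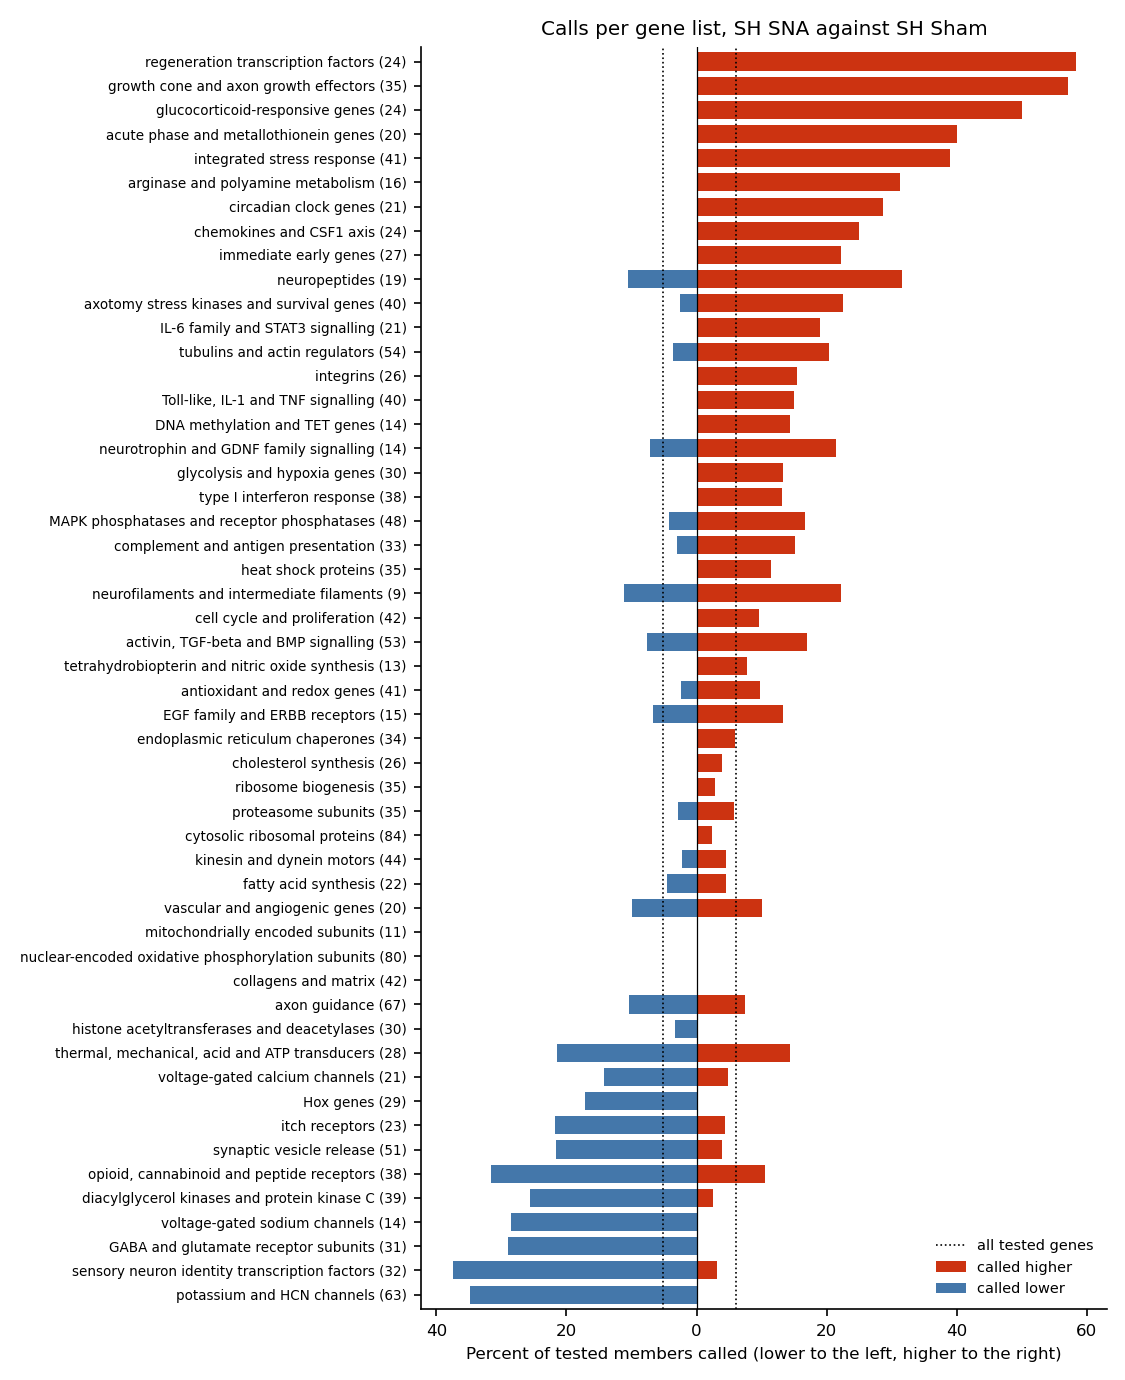
Percent of the tested members of 52 gene lists (number tested in brackets) that were called higher (right) or lower (left) in SH SNA. Dotted lines mark 6.06% and 5.17%, the shares of all tested genes. Regeneration factors stand at 58.3% higher, and identity factors at 37.5% lower.

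The same injury was measured again in the EE samples, which share no library with the SH samples. The paper took its EE Sham profile from a dataset described earlier. Whether the EE Sham and EE + SNA libraries were made together is not given in the sources used here. The same limit holds for the interaction below. Of the 1823 genes called under SH, 1809 (99.2%) had the same sign in EE + SNA against EE Sham, compared with 74.1% of all tested genes, and 681 (37.4%) were called there too, compared with 4.83% of all tested genes. Without EE + SNA 1 the latter number was 361, and without EE Sham 3 it was 356. Atf3 was at 1.71 (adjusted p = 4.2e-06), Flrt3 at 1.60 (adjusted p = 2.7e-05), Areg at 2.23 (adjusted p = 0.0038) and Npy at 2.51 (adjusted p = 0.014) in EE. Among the falls, Vwc2l was at −1.30 (adjusted p = 0.00041), Cntn6 at −1.42 (adjusted p = 0.0027) and Oprl1 at −1.04 (adjusted p = 0.00021).

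Several lists had calls in both housings. In EE, 10 of 24 tested regeneration factors and 13 of 35 growth genes rose. Falls were called for 11 of 63 potassium and HCN channels, 9 of 38 opioid and peptide receptors and 8 of 32 identity factors. In that order, the medians of these lists in EE were 0.40, 0.21, −0.24, −0.28 and −0.23. Of the same receptors 5 rose. Of 24 glucocorticoid-responsive genes 4 rose in EE. Over all tested genes, 4.83% were called in EE in either direction, and the share in each direction is not given here. Nrap (0.80, adjusted p = 0.33), Igfn1 (1.01, adjusted p = 0.29) and 1110002E22Rik (0.52, adjusted p = 0.62) did not pass the test in EE, whereas Lce1g (3.10, adjusted p = 0.0052) and Cd207 (2.30, adjusted p = 0.0027) did. A difference of the SNA effect between housings, tested as an interaction over all 12 samples, passed for 0 genes with edgeR's quasi-likelihood test and for 1, Zbtb16, with DESeq2. With the quasi-likelihood test 423 genes, 2.61% of those tested, had an unadjusted p under 0.05, a smaller share than that cut-off.

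**Figure D5:**
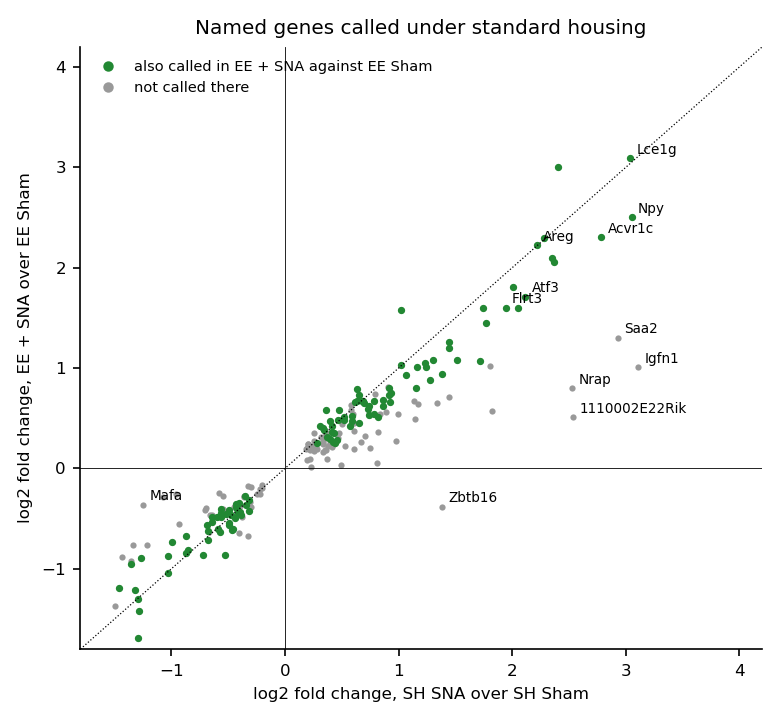
Log2 fold change after SNA under SH (horizontal axis) and under EE (vertical axis) of the 215 named genes called under SH, with green points for those also called under EE and a dotted line of equal change. Most lie near the line, and Zbtb16 is the gene with a rise under SH and a negative value under EE.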

How the data were processed

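DRG mRNA was prepared with a TruSeq kit and sequenced as paired ends. The authors aligned the reads to mm10 with TopHat 2.0.12 and Bowtie2 2.2.3 and deposited raw HTSeq read counts per gene. Whether strand was used in counting is not given in the sources used here. They also deposited FPKM values, used here for levels between genes and in alternatives with limma 3.58.1.

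After 5 HTSeq summary lines were dropped, genes with at least 10 counts in enough samples (filterByExpr) were kept, 16238 of 44345. SH SNA and SH Sham were compared in edgeR 4.0.16 (TMM, quasi-likelihood F test, Benjamini-Hochberg adjusted p under 0.05), and the EE samples likewise. A fit of all 12 samples gave the interaction. Scripts were tested on simulated data. P-values measure the spread between pools of mice.

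The lists and members were chosen with earlier results of these data known. Named genes were the 12 largest rises and falls above 1 CPM without overlap, preset members and the 4 largest calls of each list, all calls where a list had under 6, and markers. Chga, Chgb, Myt1l, Dgkd, Bdkrb2, Npy1r, E230016M11Rik, Cox6a2, Rpl3l and Hspb7 were named after their values were seen. Coordinates and exon overlaps came from GENCODE M21. Some genes that met these rules are not reported here.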

Additional observations from a re-analysis of the deposited data

Results flagged for a closer look

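Zbtb16, a zinc finger transcription factor that glucocorticoids induce, had changes of opposite sign in the 2 housings. It read 2.99, 5.09 and 5.82 CPM in SH Sham, 11.9, 8.53 and 15.4 CPM in SH SNA, 12.3, 13.8 and 11.1 CPM in EE Sham and 9.17, 11.01 and 8.22 CPM in EE + SNA. All SNA samples lay above the sham mean under SH and below it under EE, and the log2 fold change under EE minus that under SH was −1.75. Under EE alone the log2 fold change was −0.38 and did not pass edgeR's quasi-likelihood test (adjusted p = 0.15). The adjusted p of the difference between housings was 0.458 with edgeR's quasi-likelihood test, 0.000133 with DESeq2 and 0.000848 with the likelihood ratio test.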

How the results depend on the processing

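The number of genes that rose (984) was 706 to 1339 and the number that fell (839) 738 to 1136 over DESeq2, the likelihood ratio test, library size scaling, stricter and no filters, all 12 samples in 1 fit and limma on FPKM. With 1 sample left out, 674 to 989 rose and 524 to 696 fell. Without SH SNA 2 and SH Sham 3, an alternative chosen after seeing the data, 519 fell, and the cause was not tested. The number of SH calls also called in EE (681) was 1244 with no filter and 356 to 722 with 1 sample left out. Genes whose SNA effect differed between housings numbered 0, but 1 with DESeq2, 1 with the likelihood ratio test and 77 with no filter. The replicate numbers did not pair the samples (correlations of deviations 0.246, −0.247 and −0.187). When that number was fitted as a block, 1007 genes rose, 917 fell, 776 were also called in EE and 0 differed between housings. Of the 215 named calls, 194 could be tested in all 16 alternatives and 120 held in all of them, and 75 were lost with at least 1 sample left out. With 3 pools per group and 11933367 to 17036481 reads, genes near 1 CPM rest on few reads.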
